A study of Mus musculus with 23 samples.

Results

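The transcripts examined were those of 10 genes of bile acid synthesis: Cyp7a1, Cyp8b1, Cyp27a1, Cyp7b1, Cyp39a1, Hsd3b7, Akr1d1, Slc27a5, Baat and Nr0b2. The rule that selects them reads gene names alone, and all 10 were listed in both deposited tables, among 24434 genes in the table of males and 24940 in that of females. RNA had been sequenced from 23 mouse livers. The controls (genotype B100-Control) were 5 males and 6 females, and the knockouts (genotype B100-LKO, called LKO here) were 6 males and 6 females, in which the series title names an ablation of Cpt1a in liver. All 4 groups carried B100, had received the diet labelled WD for 16 weeks and were in the fed state at necropsy. What B100 and WD stand for, the ages, and the promoter or Cre driver behind the liver ablation were not given in the sources used here. The labels number the livers within each group without saying how the animals were housed or bred, so p-values measure the spread between these livers.

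Bile acids are made from cholesterol in hepatocytes. The classic route opens with Cyp7a1, the rate-limiting hydroxylase, and Cyp8b1 directs its products towards cholic acid. The alternative route opens with Cyp27a1, which oxidises the sterol side chain in mitochondria, followed by the oxysterol hydroxylase Cyp7b1, while Cyp39a1 hydroxylates a cholesterol metabolite made mainly in brain. Hsd3b7 and Akr1d1 then modify the steroid rings, Slc27a5 links the acid to coenzyme A, and Baat joins it to taurine or glycine. Nr0b2 encodes SHP, a repressor without a DNA-binding domain that is induced by the bile acid receptor FXR and lowers Cyp7a1 and Cyp8b1 transcription. LRH-1 (Nr5a2) is a nuclear receptor known to bind the Nr0b2 promoter.

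RefSeq promoter windows, from 250 bases before to 50 bases after the start site in build GRCm38.p6, were matched for 5 members: Cyp8b1, Cyp27a1, Hsd3b7, Akr1d1 and Nr0b2. The 3 promoters printed here, each 5′ to 3′ on the strand of its gene, are the promoter of the repressor, that of a ring-modifying enzyme that differed between the sexes, and that of the cholic acid enzyme that SHP is known to lower. Capitals mark the LRH-1 motif TCAAGG, searched on both strands, so that a match on the other strand reads CCTTGA.
Nr0b2 (chr4:133553126-133553425, plus strand): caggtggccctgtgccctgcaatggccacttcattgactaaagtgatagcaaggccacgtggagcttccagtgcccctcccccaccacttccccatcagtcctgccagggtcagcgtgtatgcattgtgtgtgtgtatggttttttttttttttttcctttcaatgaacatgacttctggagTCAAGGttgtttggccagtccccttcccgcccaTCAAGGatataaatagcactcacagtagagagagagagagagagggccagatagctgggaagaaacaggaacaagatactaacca
Akr1d1 (chr6:37529923-37530222, plus strand): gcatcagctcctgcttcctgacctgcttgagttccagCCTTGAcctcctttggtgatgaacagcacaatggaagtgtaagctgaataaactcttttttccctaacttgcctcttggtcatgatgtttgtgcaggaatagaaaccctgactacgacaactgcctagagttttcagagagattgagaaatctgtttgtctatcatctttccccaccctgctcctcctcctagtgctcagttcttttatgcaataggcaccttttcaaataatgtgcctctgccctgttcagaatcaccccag
Cyp8b1 (chr9:121916256-121916555, minus strand): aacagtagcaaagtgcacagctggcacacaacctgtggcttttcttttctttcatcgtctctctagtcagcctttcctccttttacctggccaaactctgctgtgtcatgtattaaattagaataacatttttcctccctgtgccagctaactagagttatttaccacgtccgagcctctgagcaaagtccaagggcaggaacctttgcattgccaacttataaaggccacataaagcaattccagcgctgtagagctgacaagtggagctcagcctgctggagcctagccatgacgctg
The Nr0b2 window held 2 matches on the strand of the gene, at positions -68 and -35 from the start site. The Akr1d1 window held 1 on the other strand at -213, and the windows of Cyp8b1, Cyp27a1 and Hsd3b7 held no exact TCAAGG. Variant spellings of an LRH-1 site were not searched, so their absence from these windows is not shown. Of 32851 promoters of this length, 14.4 percent held the motif. The nuclear receptor motif AGGTCA, present in 16.3 percent of promoters, matched at 2 places in Akr1d1, -232 and -210 on the other strand, of which the latter overlaps the TCAAGG match. The E-box CACGTG, in 7.15 percent of promoters, matched once in Nr0b2 at -195. Neither the inverted repeat bound by FXR (0.00913 percent of promoters) nor the CRE TGACGTCA (1.79 percent) was found in the 5 windows. A match describes the letters and is not a bound site.

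Total counts ran from 14224665 to 19626662 per liver. The targeted gene, Cpt1a, fell in the LKO livers of both sexes without overlap with the controls, by 2.50 on the log2 scale in males and by 2.35 in females (edgeR quasi-likelihood test, Benjamini-Hochberg adjusted p 9.97e-05 and 3.69e-08). The 6 hepatocyte markers (such as Alb and Apoa1) were present in every library, with a summed level of 52583 to 96819 CPM (counts scaled to the size of the library). In these bulk samples fewer cells of a type and less RNA per cell cannot be told apart.

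Levels of different genes were compared only per length, as the FPKM the authors deposited. In control males the order by mean FPKM was Slc27a5 (347 ± 59.04, SD, n = 5), Cyp27a1 (243 ± 30.9), Cyp8b1 (162 ± 49.8), Baat (91.6 ± 23.5), Nr0b2 (85.0 ± 18.5), Cyp7b1 (53.8 ± 55.4), Akr1d1 (13.7 ± 5.27), Cyp7a1 (5.39 ± 3.05), Cyp39a1 (2.99 ± 0.36) and Hsd3b7 (0.23 ± 0.084). Neighbours in this order overlapped between livers, except that Cyp7b1 lay above Akr1d1 in every control male and Cyp39a1 above Hsd3b7. In control females, the order by FPKM was Slc27a5 (436 ± 34.3, SD, n = 6), Cyp27a1 (272 ± 62.06), Cyp8b1 (94.6 ± 46.7), Baat (89.1 ± 10.5), Nr0b2 (73.6 ± 35.0), Akr1d1 (40.7 ± 7.79), Cyp7a1 (28.7 ± 7.92), Cyp7b1 (11.6 ± 2.72), Cyp39a1 (8.45 ± 1.84) and Hsd3b7 (0.14 ± 0.075). Here the neighbouring pairs without overlap were Slc27a5 over Cyp27a1, Cyp7a1 over Cyp7b1, and Cyp39a1 over Hsd3b7. Slc27a5 and Cyp27a1 thus headed both orders, and Cyp7b1 and Cyp7a1 stood in opposite order in the 2 sexes.

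**Figure D1:**
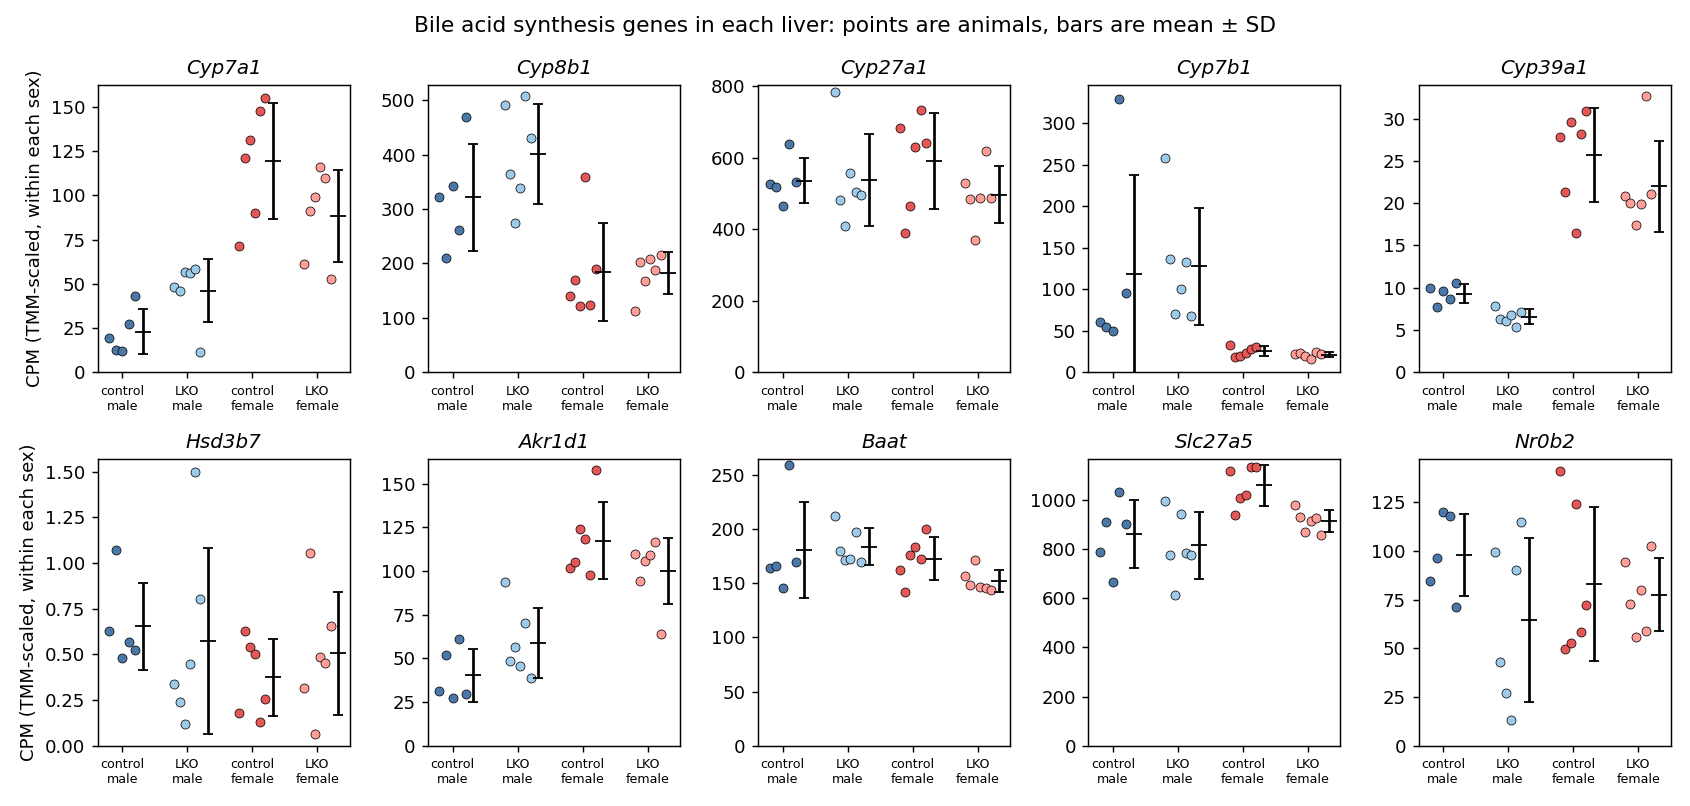
Level of each of the 10 bile acid genes in every liver, in CPM, with 1 point per liver, the 4 groups side by side and the mean with its SD marked. Cyp7a1 sits higher and Cyp7b1 lower in the females, control male replicate 4 stands apart for Cyp7b1 at 330 CPM, and LKO male replicate 6 is the lowest LKO male for Cyp7a1 at 11.2 CPM.

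The comparison of LKO with control livers asked whether transcripts of bile acid synthesis differ after hepatic loss of Cpt1a. In neither sex did any of the 10 pass the test. In males 9 members had enough counts to be tested, and edgeR's quasi-likelihood test called 0 at an adjusted p under 0.05, against 0.00724 percent of all 13805 genes. At an unadjusted p under 0.05 there were 2 members (Cyp7a1 and Cyp39a1), beside 12.5 percent of all genes. DESeq2 also called 0, against 1.45 percent of the genes to which it gave an adjusted p, and it gave none to Cyp39a1. In females 9 were tested and 0 called, against 1.42 percent of 13684 genes. There 2 members (Slc27a5 and Baat) had an unadjusted p under 0.05, beside 15.6 percent of all genes, and DESeq2 called 1, Slc27a5, against 3.64 percent of genes. The fold changes of the 9 tested members were 6 positive and 3 negative in males, with a median of 0.025 on the log2 scale against 0.010 for all genes, of which 52.1 percent were positive. In females all 9 were negative, with a median of -0.22 against 0.0051 for all genes, of which 51.1 percent were positive. No tested member had LKO and control values free of overlap in either sex, where 1.77 percent of all genes in males and 1.59 percent in females did.

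Cyp7a1, the entry enzyme of the classic route (ENSMUSG00000028240, chromosome 4, 6265612 to 6275633, minus strand, in the coordinates of the tables, whose build the submitters' processing notes give as mm39), had fold changes of opposite sign in the 2 sexes, and neither passed the test. In control males it was 19.4, 12.6, 12.2, 26.9 and 43.0 CPM in replicates 1, 2, 3, 4 and 6. In LKO males it was 48.3, 46.1, 56.5, 56.0, 58.4 and 11.2 CPM in replicates 1 to 6. Replicates 1 to 5 of the LKO males lay above every control male, and replicate 6 lay below all of them. The log2 fold change was 1.01 (SE 0.40, 95% interval 0.16 to 1.87), with an unadjusted p of 0.0241 and an edgeR adjusted p of 0.334. In females Cyp7a1 was 71.3 to 155 CPM in controls (median 126) and 52.7 to 116 CPM in LKO livers (median 95.1), and 0 of 6 LKO livers exceeded the control median. There it had a log2 fold change of -0.44 (95% interval -0.89 to 0.022, edgeR adjusted p 0.347).

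The interaction term tested whether these 2 fold changes differ, and not whether their signs are opposite. The log2 fold change of females minus that of males was -1.45 (SE 0.47, 95% interval -2.42 to -0.47), with an unadjusted p of 0.0054 and an edgeR adjusted p of 0.229 over 14503 genes, so the difference did not pass. Among the 10 members 0 passed the interaction test, as did 0 percent of all genes. At an unadjusted p under 0.05 there were 2 members, Cyp7a1 and Akr1d1, beside 12.9 percent of all genes, and DESeq2 called 0, against 0.532 percent of genes. With each liver left out in turn, the Cyp7a1 interaction ran from -1.83 to -1.29. In the male comparison the log2 fold change of Cyp7a1 ran from 0.86 without control replicate 3 to 1.38 without control replicate 6, and was 1.23 without LKO replicate 6.

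Cyp8b1, the cholic acid enzyme (ENSMUSG00000050445, chromosome 9, 121743422 to 121745371, minus strand), was 210.3 to 469.9 CPM in control males and 274 to 508 CPM in LKO males, with medians of 323 and 397. The groups overlapped (log2 fold change 0.32, 95% interval -0.12 to 0.76, edgeR adjusted p 0.547). In females it was 122 to 359 CPM in controls and 111 to 215 CPM in LKO livers, with medians of 154 and 195. Their log2 fold change was -0.015 (95% interval -0.53 to 0.50, adjusted p 0.988), and it was 0.29 without control female replicate 4, which had the 359 CPM.

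In the alternative route, Cyp27a1 (ENSMUSG00000026170, chromosome 1, 74752733 to 74777051, plus strand) was 465 to 639 CPM in control males and 410.2 to 783 CPM in LKO males. Its log2 fold change was 0.0070 in males (95% interval -0.31 to 0.32, edgeR adjusted p 0.991). In females the value was -0.25 (95% interval -0.58 to 0.075, adjusted p 0.462), with 389.5 to 735 CPM in controls and 371 to 619 CPM in LKO livers. Every LKO female lay below the control female median of 635 CPM.

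Cyp7b1, the oxysterol hydroxylase of that route (ENSMUSG00000039519, chromosome 3, 18126114 to 18297502, minus strand), depended on single livers in males. The 5 control males had 60.4, 54.4, 49.0, 330 and 94.9 CPM (replicates 1, 2, 3, 4 and 6), and the 6 LKO males 258, 137, 69.9, 100.3, 133 and 68.1 CPM. Control replicate 4 was thus the highest of all 23 livers, and each LKO male lay above the control median. Its log2 fold change was 0.12 (95% interval -0.96 to 1.20, edgeR adjusted p 0.951). It was 0.98 without control replicate 4 and -0.21 without LKO replicate 1. In females Cyp7b1 was 18.04 to 32.9 CPM in controls and 15.6 to 23.6 CPM in LKO livers (log2 fold change -0.27, 95% interval -0.58 to 0.045, adjusted p 0.403).

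Cyp39a1 (ENSMUSG00000023963, chromosome 17, 43978316 to 44062322, plus strand) had the lowest p of any member in males. Control males had 9.98, 7.67, 9.59, 8.66 and 10.5 CPM in replicates 1, 2, 3, 4 and 6. LKO males had 7.88, 6.25, 6.09, 6.70, 5.37 and 7.15 CPM in replicates 1 to 6. Of these, replicate 1 alone exceeded the lowest control, so the groups overlapped by that liver. The log2 fold change was -0.50 (SE 0.13, 95% interval -0.77 to -0.23), with an unadjusted p of 0.0015 and an edgeR adjusted p of 0.245. In the authors' deposited table for males Cyp39a1 had a log2 fold change of -0.51 and a p of 0.000297. Its adjusted p is entered there as 1, whereas Cyp7a1, with a larger p of 0.0293, has 0.24. The 1 is therefore not read as a test result. In females it was 16.5 to 30.9 CPM in controls and 17.5 to 32.7 CPM in LKO livers (log2 fold change -0.23, 95% interval -0.58 to 0.13, adjusted p 0.561). Over both sexes, with sex as a term, the log2 fold change was -0.34 (95% interval -0.57 to -0.12), with an unadjusted p of 0.0047 and an adjusted p of 0.161. In that joint fit all 10 members were tested, 1 (Cyp39a1) had an unadjusted p under 0.05 beside 13.9 percent of 14503 genes, and 0 were called by edgeR, against 0.365 percent of all genes, or by DESeq2, against 1.62 percent.

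For the ring-modifying steps, Akr1d1 (ENSMUSG00000038641, chromosome 6, 37507108 to 37545750, plus strand) was 31.1, 52.0, 27.5, 60.9 and 29.8 CPM in control males 1, 2, 3, 4 and 6. LKO males had 93.8, 48.4, 56.5, 45.5, 70.3 and 38.6 CPM. All 6 LKO males exceeded the control median, and 2 exceeded every control. Akr1d1 had a log2 fold change of 0.55 (95% interval -0.0060 to 1.10, unadjusted p 0.0522, edgeR adjusted p 0.405). In females it was -0.23 (95% interval -0.54 to 0.073, adjusted p 0.469), with 97.5 to 158 CPM in controls and 64.2 to 117 CPM in LKO livers. The interaction was -0.78 (95% interval -1.42 to -0.14, unadjusted p 0.0184, adjusted p 0.307).

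Hsd3b7 (ENSMUSG00000042289, chromosome 7, 127399776 to 127402974, plus strand) had 1 to 24 counts per library and was too low to be tested within a sex. Over both sexes its log2 fold change was 0.12 (95% interval -0.65 to 0.88, edgeR adjusted p 0.920). In the GENCODE M21 annotation (build GRCm38), 1717 of its 2769 exon bases, 62.0 percent, are shared with the protein-coding gene Gm49388 on the same strand, which the deposited tables do not list. A further gene on the opposite strand, 9430064I24Rik, shares 1729 exon bases and had 0 to 5 counts per library. How reads in shared exons were counted was not given in the sources used here, so the level of Hsd3b7 is uncertain, and the part of this overlap in it was not tested. Of the other members, Cyp7b1, Cyp39a1 and Akr1d1 overlap small or antisense genes in the tables (Gm23686, ENSMUSG00000121022 and Gm7463) that had at most 17 counts in any library.

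Slc27a5, the bile acid coenzyme A ligase (ENSMUSG00000030382, chromosome 7, 12722273 to 12732119, minus strand), had the lowest p of any member in females. It was 938 to 1136 CPM in control females (median 1069) and 858 to 979 CPM in LKO females (median 922). All 6 LKO females lay below the control median, and the groups overlapped between 938 and 979 CPM. The log2 fold change was -0.21 (SE 0.077, 95% interval -0.38 to -0.050), with an unadjusted p of 0.014 and an edgeR adjusted p of 0.185. The test decides the call here: with DESeq2 the adjusted p was 0.0357. The authors' deposited table likewise gives Slc27a5 a log2 fold change of -0.22 and an adjusted p of 0.0357 in females, among 554 genes under 0.05. In males the log2 fold change was -0.077 (95% interval -0.37 to 0.22, edgeR adjusted p 0.874), at 667 to 1035 CPM in controls and 615 to 996 CPM in LKO livers.

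Baat, which conjugates bile acids (ENSMUSG00000039653, chromosome 4, 49489422 to 49506557, minus strand), was 142 to 199.6 CPM in control females and 144 to 172 CPM in LKO females. Its log2 fold change was -0.18 (95% interval -0.36 to -0.00086, unadjusted p 0.0491, edgeR adjusted p 0.318), and all 6 LKO females lay below the control median of 174 CPM. In males it was 0.025 (95% interval -0.27 to 0.32, adjusted p 0.961), with 164, 166, 146, 259 and 169 CPM in the controls and 169.6 to 212 CPM in LKO livers.

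Beside the negative female fold changes, the summed level of the 6 hepatocyte markers was 79056 to 96819 CPM in control females and 54497 to 86259 CPM in LKO females, and all 6 had negative fold changes of which 0 were called by edgeR and 1 had an unadjusted p under 0.05. The 6 cholangiocyte markers summed to 39.9 to 49.8 CPM in control females and 51.3 to 86.5 CPM in LKO females. These sums did not overlap, and at most 1 marker was at 0 in a library. Of the 5 tested, edgeR called 1 higher, against 0.928 percent of all genes. It was Spp1 (log2 fold change 0.66, edgeR adjusted p 0.0135), which macrophages also express. Of the macrophage, stellate, endothelial and lymphocyte markers 0 were called by edgeR in females. At an unadjusted p under 0.05 there were 6 of the 22 tested, beside 15.6 percent of all genes in females. They were 3 stellate markers, all higher, and 1 each of macrophage (higher), endothelial (lower) and lymphocyte (higher). All 6 stellate markers had positive fold changes. In males the hepatocyte sums were 56365 to 81173 CPM in controls and 52583 to 73393 CPM in LKO livers. There 4 of the 6 hepatocyte markers had negative and 2 positive fold changes, and edgeR called 0. At an unadjusted p under 0.05 there were 2, both lower, beside 12.5 percent of all genes in males. The median log2 fold change of these markers was -0.27 in males and -0.27 in females. The part of this in the member values was not tested.

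Nr0b2, the SHP repressor (ENSMUSG00000037583, chromosome 4, 133280687 to 133283847, plus strand), spread widely among LKO males. Control males had 84.3, 96.1, 119.8, 118 and 71.1 CPM, and LKO males 99.5, 42.8, 27.1, 13.1, 90.0 and 115 CPM. LKO replicates 2, 3 and 4 thus lay below every control, while the other three lay within the control range. Its log2 fold change was -0.60 (95% interval -1.53 to 0.33, edgeR adjusted p 0.603). In females it was 49.8 to 141 CPM in controls and 56.0 to 103 CPM in LKO livers (log2 fold change -0.10, 95% interval -0.65 to 0.44, adjusted p 0.897).

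**Figure D2:**
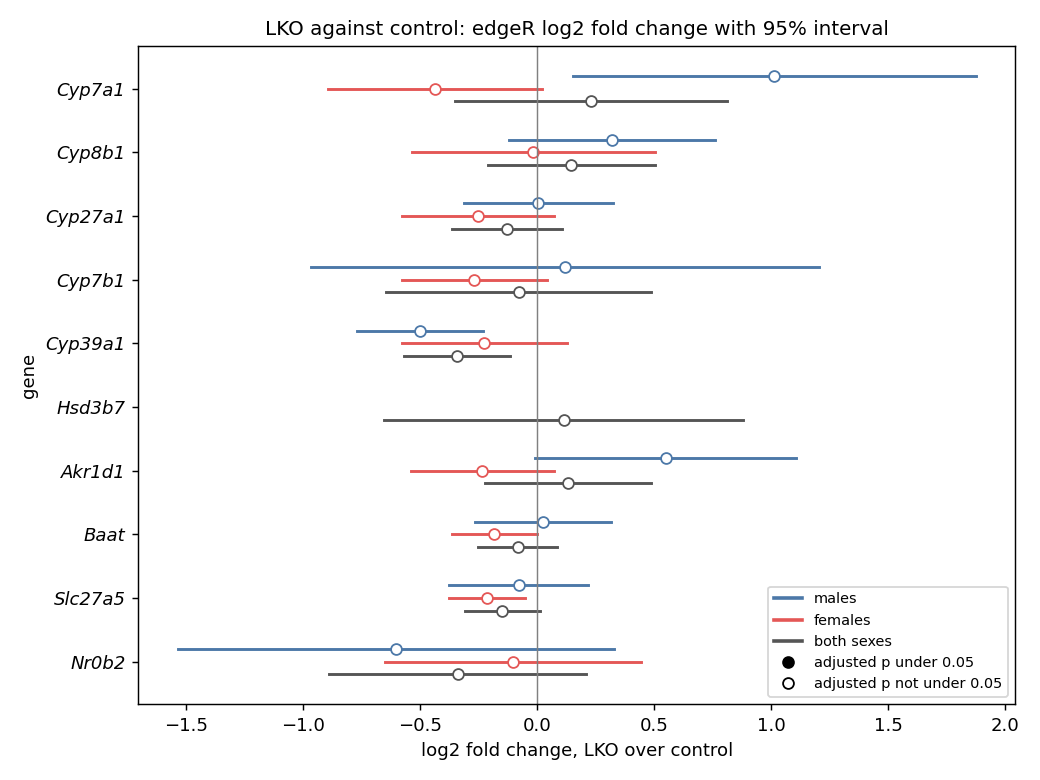
Log2 fold change of LKO over control for each bile acid gene, fitted by edgeR in males, in females and over both sexes (grey), with its 95% interval as a bar. None passed an adjusted p of 0.05. The Cyp7a1 estimates are 1.01 in males and -0.44 in females. Hsd3b7 was not tested within a sex and has a point over both sexes only (0.12).

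More members passed the test between the sexes than between the genotypes, and so did more of all genes. Between the genotypes edgeR called 0.00724 percent of all genes in males and 1.42 percent in females. Between female and male controls, 4 of the 9 members tested were called (edgeR adjusted p under 0.05), against 18 percent of 13699 genes, and the same 4 had no overlap between the sexes, against 10.3 percent of genes. Cyp7a1, Cyp39a1 and Akr1d1 were higher in females and Cyp7b1 lower. Each sex came in its own deposited table, so sex and table cannot be told apart. The same comparison between LKO females and LKO males, chosen after the data were seen, called 4 of 9 as well, against 12.4 percent of 13778 genes, and these were Cyp8b1, Cyp7b1, Cyp39a1 and Akr1d1. Of them 3, without Akr1d1, had no overlap between the sexes, against 6.18 percent of genes.

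Cyp7a1 averaged 120 ± 33.0 CPM in control females (SD, n = 6) and 22.8 ± 12.8 CPM in control males (SD, n = 5). These CPM are scaled within each sex, whereas fold differences between the sexes come from a fit of both. The difference was 5.36-fold (log2 2.42, SE 0.33, edgeR adjusted p 0.000438). Every control female exceeded every control male. In LKO livers the sexes overlapped, at 88.4 ± 25.9 and 46.1 ± 17.8 CPM (n = 6 each), and the log2 difference was 0.97 (95% interval 0.32 to 1.62, edgeR adjusted p 0.0502). The interaction test above is the test of whether these 2 sex differences differ.

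Cyp7b1 went the other way, with 25.1 ± 5.89 CPM in control females and 118 ± 120 CPM in control males (SD). Its log2 difference was -2.19 (SE 0.45, edgeR adjusted p 0.00595), and without control male replicate 4 it was -1.33 with an adjusted p of 0.000717. In LKO livers the log2 difference was -2.58 (SE 0.28, edgeR adjusted p 2.60e-05), at 20.9 ± 2.99 CPM in females and 128 ± 70.4 CPM in males.

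Cyp39a1 was 2.83-fold higher in control females (25.7 ± 5.60 against 9.28 ± 1.13 CPM, edgeR adjusted p 5.71e-05) and 3.42-fold higher in LKO females (22.01 ± 5.38 against 6.57 ± 0.875 CPM, adjusted p 1.25e-06). Akr1d1 was 2.99-fold higher in control females (118 ± 22.2 against 40.3 ± 15.2 CPM, edgeR adjusted p 0.000495). In LKO livers its values overlapped between the sexes and the fold was 1.73 (adjusted p 0.0157).

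Cyp8b1 was lower in LKO females than in every LKO male (log2 difference -1.11, SE 0.17, edgeR adjusted p 0.000703). Between controls the log2 difference was -0.77 (95% interval -1.37 to -0.17, adjusted p 0.0725), and it was called without control female replicate 4 (-1.08, adjusted p 0.00422). Slc27a5 had a log2 difference of 0.33 between control females and males (95% interval 0.090 to 0.58, adjusted p 0.0569), which was called without control male replicate 4 (0.41, adjusted p 0.0171). With each control liver left out in turn, the edgeR adjusted p ran from 0.00422 to 0.192 for Cyp8b1. For Slc27a5 it ran from 0.0171 to 0.130. DESeq2 called both between controls, which brought its count to 6, against 18.2 percent of all genes by that test. Cyp27a1 (0.17, adjusted p 0.465), Baat (-0.032, 0.907) and Nr0b2 (-0.20, 0.649) did not pass.

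**Figure D3:**
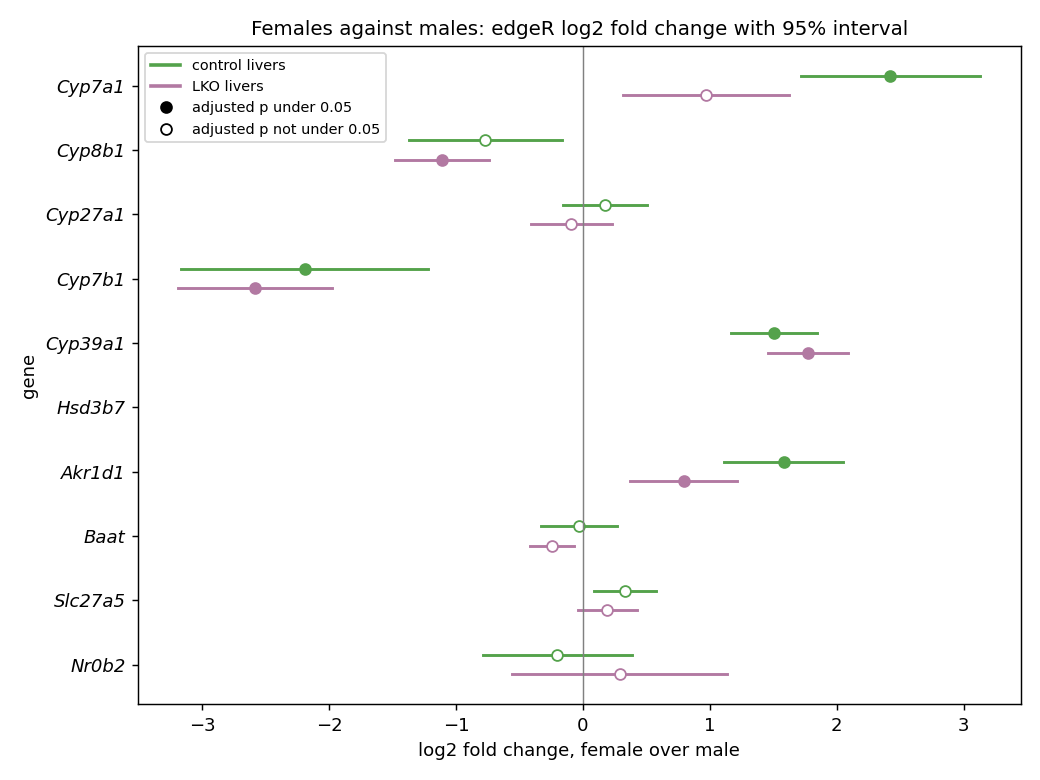
Log2 fold change of females over males for each bile acid gene, in control livers and in LKO livers, fitted by edgeR, with its 95% interval as a bar and filled points at an adjusted p under 0.05. Cyp7a1 stands at 2.42 in controls and 0.97 in LKO livers, Cyp7b1 at -2.19 and -2.58, and Hsd3b7 has no point because it was not tested.

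Other genes of the pathway were followed with lists chosen by function. Of 18 regulators of bile acid synthesis tested in females, edgeR called 1 higher and 1 lower in LKO livers, against 0.928 and 0.49 percent of all genes. Fgfr4, the hepatic receptor for the gut hormone FGF15 that represses Cyp7a1, fell from 50.7 ± 5.74 to 37.3 ± 4.86 CPM (log2 fold change -0.44, SE 0.098, adjusted p 0.0395), with overlap between the groups. Its co-receptor Klb was 23.9 ± 5.20 and 17.9 ± 1.96 CPM (log2 fold change -0.42, adjusted p 0.121). Nrip1, a nuclear receptor corepressor, rose from 6.60 ± 0.71 to 9.44 ± 1.33 CPM without overlap (0.52, SE 0.11, adjusted p 0.0384). In males 0 of the 18 were called by edgeR and 0 had an unadjusted p under 0.05; Fgfr4 had a log2 fold change of -0.25 and Nrip1 of 0.04 there. The interaction test called 0 of the 18, with 1 (Nrip1) at an unadjusted p under 0.05, so a difference between the sexes in these genes was not shown.

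Of 14 other enzymes and carriers of bile acid synthesis tested in females and 15 in males, edgeR called 0. In females 8 had positive and 6 negative fold changes, with a median of 0.17 on the log2 scale. At an unadjusted p under 0.05 there were 4 with positive values (Acot8 0.39, Cyp3a11 0.35, Hsd17b4 0.28 and Scp2 0.22) and 1 with a negative value, and in males 1 with a positive value. Beside these counts stand 15.6 percent of all genes in females and 12.5 percent in males. The gene with the lowest p was Akr1c14 in females (log2 fold change -0.34, adjusted p 0.144) and Abcd3, a peroxisomal importer, in males (0.19). Among the transporters that respond to FXR, 3 were tested and edgeR called 0 in each sex. At an unadjusted p under 0.05 there were 2 in females and 0 in males, beside the same shares of all genes. In females the phospholipid transporter Abcb4 was 173 ± 24.6 CPM in controls and 226 ± 13.4 CPM in LKO livers (log2 fold change 0.39, adjusted p 0.0538). The canalicular bile salt pump Abcb11 was 309.7 ± 68.4 and 203 ± 39.6 CPM there (-0.61, adjusted p 0.0644), and Slc51b had a log2 fold change of 0.33 (adjusted p 0.805). In a list of 14 clock genes, added because Cyp7a1 follows a daily rhythm, edgeR called 0 of 13 in females and 0 of 14 in males, with 1 and 7 at an unadjusted p under 0.05, beside 15.6 and 12.5 percent of all genes; of the 7 in males 6 had positive values. The lowest p was that of Nr1d1 in females (-0.90, adjusted p 0.216) and of Per2 in males (0.55, adjusted p 0.25). The same shares of all genes stand beside the next 2 lists. Of 8 genes of pericentral hepatocytes, where Cyp7a1 is expressed, edgeR called 1 lower in LKO females, against 0.49 percent of all genes. It was Cyp1a2 (-0.82, edgeR adjusted p 0.042). In males 0 were called. In each sex 2 had an unadjusted p under 0.05. Of 8 periportal genes 0 were called in either sex, with 4 in females and 1 in males at an unadjusted p under 0.05.

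Between control females and control males, 8 of the 18 regulators were higher and 0 lower by edgeR, against 8.8 and 9.2 percent of all genes. They were the receptors Nr1i3 (log2 difference 1.30), Nr1i2 (0.37), Nr5a2 (0.48) and Hnf4a (0.43), the co-receptor Klb (0.96), the corepressor Prox1 (0.50), Foxo1 (0.83) and the coactivator Ppargc1a (1.09). The bile acid receptor FXR (Nr1h4) was not among them (0.19, adjusted p 0.198). Of the 15 other synthesis genes, 2 were lower in females, Scp2, a sterol carrier (-0.69, adjusted p 0.0014) and the peroxisomal enzyme Hsd17b4 (-0.44, adjusted p 0.0297). Abcb4 was lower too (-0.54, adjusted p 0.00494).

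Beside these sex differences, markers of other cells and of hepatocyte zones also differed between the controls. In that comparison edgeR called 18 percent of all genes, 8.8 percent higher in females and 9.2 percent lower. All 6 macrophage and Kupffer cell markers had positive log2 differences and 3 were called (Clec4f, Vsig4 and Timd4). Their summed levels were 452 to 889 CPM in females and 259 to 527 CPM in males. Of the 6 hepatocyte markers Alb and Cps1 were higher in females. Of the 14 clock genes 6 were higher (Per1, Per3, Cry2, Nr1d2, Tef and Hlf). Of the 8 periportal genes 4 were higher (Sds, Gls2, Pck1 and Ctsc) and 2 lower (Cyp2f2 and Cdh1). Of the 8 pericentral genes 1 was higher, Slc1a2. Of the 6 endothelial markers Stab2 was higher. Spp1 was lower among 5 cholangiocyte markers tested, and Col1a1 among 6 stellate markers. Of the 3 lymphocyte markers tested 0 were called. A single call in a list of 5 to 8 genes is close to the share of all genes. Their part in the differences of the members was not tested.

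Some pairs of members also varied together within groups. Deviations of log2 CPM from the group mean were correlated over all 23 livers for the 45 pairs of members, with permutation within groups and Benjamini-Hochberg adjustment over the 45. By both Pearson's r and Spearman's rho, 4 pairs passed, all positive. The share of pairs of other liver genes that would pass was not computed. The count is therefore not shown to be particular to these genes. Cyp27a1 and Slc27a5 had r 0.74 and rho 0.77 (permutation p 2e-05 each, adjusted p 0.0009 each), with r 0.87 in males and 0.82 in females. Without the 2 livers farthest from the median of Cyp27a1, r was 0.68. Cyp27a1 and Cyp7b1 had r 0.63 and rho 0.66 (adjusted permutation p 0.00225 and 0.0151), with 0.76 in males, 0.72 in females and 0.55 without the 2 farthest livers.

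Akr1d1 and Baat had r 0.71 and rho 0.66 (adjusted permutation p 0.00225 and 0.0189), with 0.78 in males, 0.51 in females and 0.56 without the 2 farthest livers. Cyp7b1 and Baat had r 0.82 and rho 0.71 (adjusted permutation p 0.00922 and 0.0225). That relation was 0.94 in males but 0.30 in females, and 0.57 without the 2 farthest livers. Control male replicate 4 was the highest of the 23 livers for both genes. With the adjustment made within a sex, 5 pairs passed in males and 0 in females.

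The pair of the repressor and its textbook target, Nr0b2 and Cyp7a1, had a negative r of -0.54 and rho of -0.45. The permutation p was 0.0275 and 0.0385, and the adjusted p 0.137 and 0.216, so the pair did not pass. Its r was -0.47 in males, -0.77 in females and -0.41 without the 2 livers farthest from the median of Cyp7a1. LKO male replicate 6, lowest of its group in Cyp7a1 at 11.2 CPM, was the highest in Nr0b2 at 115 CPM, but LKO males 1 and 5, at 99.5 and 90.0 CPM of Nr0b2, had 48.3 and 58.4 CPM of Cyp7a1.

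**Figure D4:**
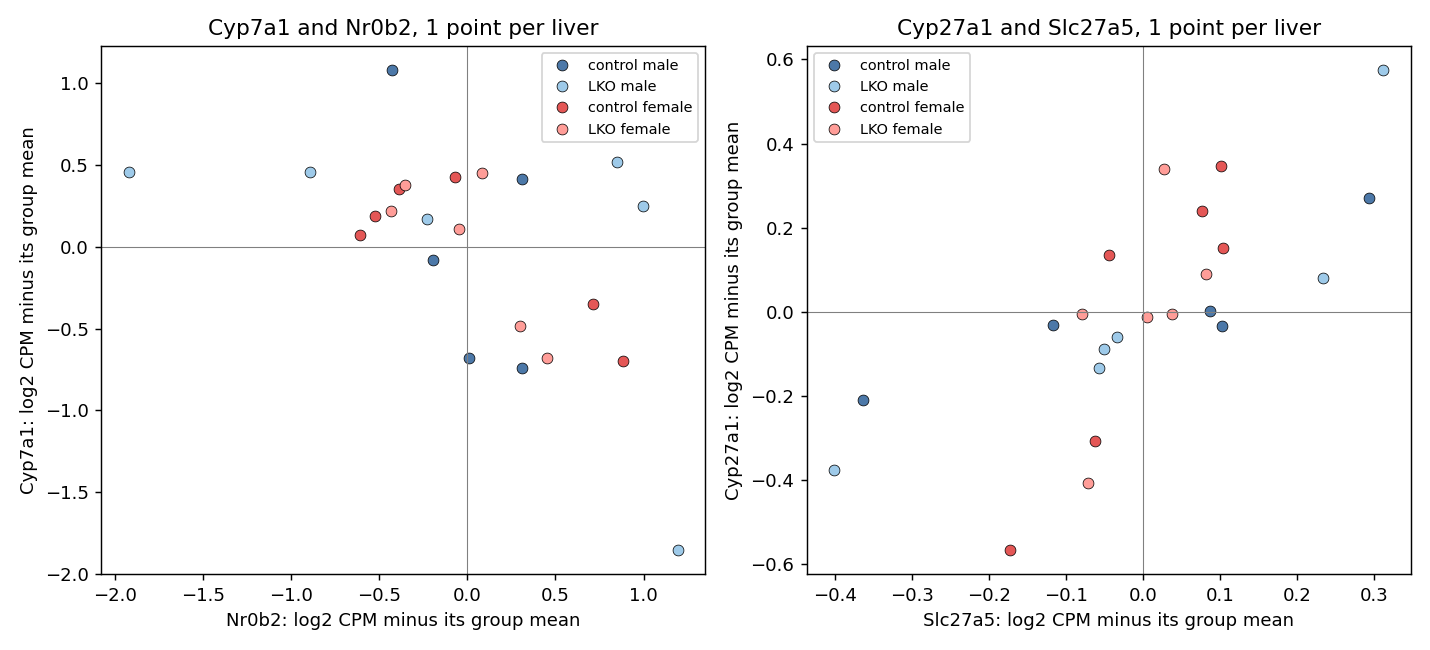
Deviation of each liver from its group mean, in log2 CPM, for Cyp7a1 against Nr0b2 (left) and Cyp27a1 against Slc27a5 (right), with 1 point per liver and colours for the 4 groups. The left panel falls (r -0.54, adjusted p 0.137) with LKO male replicate 6 at its lower right, and the right panel rises (r 0.74, adjusted p 0.0009).

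With genes kept at 50 or more counts on average, 10611 were compared, and the 5 whose deviations were most like those of Cyp7a1 over the 23 livers were Metrn (r 0.72), Mfap1b (0.71), Socs2 (0.69), Aopep (0.68) and Ppp1r10 (0.68). The likeness of Metrn and Mfap1b lay in males (r 0.88 and 0.92) rather than in females (0.14 and 0.025), whereas Aopep had 0.67 and 0.74. For Nr0b2, genes among the 5 were Mn1 (r 0.77), Cbx2 (0.74), Ppp1r3c (0.73) and Cdc42ep4 (0.72). Mn1 had r 0.89 with Nr0b2 in males and 0.62 in females. These genes share libraries and depth with the members, and the values are given as a description.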

How the data were processed

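Bulk RNA of 23 livers was analysed from 1 deposited table per sex. Per the labels' protocols, poly-A RNA was selected and libraries were made with random hexamers and dUTP. The submitters' processing notes name HISAT2 2.0.5 and mm39; the counter, the annotation and the use of strand in counting were not given in the sources used here. The authors deposited raw read counts per gene, a normalized count signal and FPKM, and, per the file headers, log2 fold changes and p-values of LKO against control. The normalized signal was checked and entered no test, and 0 sample columns stayed unmapped.

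Counts were tested with edgeR 4.0.16 in R 4.3.3 (filterByExpr, TMM, quasi-likelihood test, Benjamini-Hochberg adjustment over all genes tested, calls at an adjusted p under 0.05), each sex alone. The joint and interaction fits used all 23 samples, and the sex comparisons the controls or the LKO livers, with genes listed in both tables. CPM are counts scaled by TMM within each sex, so CPM of the 2 sexes rest on separate scalings. Fold changes between the sexes come from fits that scale both sexes together. Log2 CPM for correlations were scaled over all 23 samples, with a prior count of 2 (100000 permutations within groups, scipy 1.17.1 and numpy 2.4.6). The fits were tested on simulated data. Of true 1.5-fold changes, 55.2 percent were recovered in males, 64.2 percent in females and 31.3 percent in the interaction. Of true 2-fold changes the shares were 89.6, 94.0 and 82.1 percent. Changes of 1.5-fold can thus be missed by these fits. Alternatives were RLE factors, library size alone, no filter, at least 10 counts in every sample, DESeq2 1.42.0, a replicate block, a fit of all 23 samples, and each liver left out. Depth was 14224665 to 19626662 counts, and intervals cover 95 percent.

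The rule for the members reads gene names alone, but members and lists were chosen with earlier results of these data known. Named genes were the 10 members, Cpt1a, the called genes and the gene with the lowest p of each list, genes overlapping members, and the 5 genes most like Cyp7a1 and Nr0b2; some list genes with a known role beside these (Klb, Abcb11, Nr1h4) were named after their values were seen. One gene that the rule names is not reported here.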

Additional observations from a re-analysis of the deposited data

Results flagged for a closer look

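In 7 of 40 groups of livers tested, 1 liver's CPM lay apart from the others of its group by more than Dixon's 95 percent limit. That limit flags about 5 percent of groups when groups are independent and values normally distributed. Here the genes share the same livers and normality was not tested, so the count of 7 is not compared with that share. Control male replicate 4 stood highest in Cyp7b1 at 330 CPM (next 94.9) and in Baat at 259 CPM (next 169). LKO male replicate 1 stood highest of its group in Cyp7b1 at 258 CPM (next 137). LKO male replicate 6 stood lowest in Cyp7a1 at 11.2 CPM (next 46.1). Control female replicate 4 stood highest in Cyp8b1 at 359 CPM (next 189.6), and LKO female replicate 5 in Cyp39a1 at 32.7 CPM (next 21.1). Control male replicate 2 stood highest in Hsd3b7 at 1.07 CPM (next 0.63), a difference of few reads.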

How the results depend on the processing

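Of 1073 values of single members under other settings, 1035 kept their sign and their side of the threshold. Most of these values came from fits with 1 liver left out. They also include the sex comparison in LKO livers, which uses other animals and is not a processing alternative. Many members lay far from the threshold in the main fit, so keeping their side was little of a test. Counts of called members in the LKO comparisons stayed at 0 under every setting run, except that DESeq2 called 1 in females. Between the controls of the 2 sexes the count of 4 was 5 with library size alone, 6 with DESeq2 and 4 to 5 with livers left out. The count of 4 correlated pairs was 3 without the 2 farthest livers, 5 within males and 0 within females. The cause of these shifts was not tested.

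Signs reversed for small differences. With library size alone, Cyp8b1 in females was 0.032 and Cyp7b1 over both sexes 0.0022. Same-numbered livers did not deviate together in males (r -0.30 to 0.38), where 1 of 5 numbers correlated best with their own. In females their r was -0.0028 to 0.14, and 4 of 6 numbers correlated best with their own. The labels do not state a pairing, and the main fits left the numbers out. Whether same-numbered females share a batch was not tested. With the replicate block, the counts of called members were 0, 0, 0, 0 and 4 as without it, while Cyp27a1 in males was -0.0037, Cyp8b1 in females 0.066, and over both sexes Cyp7b1 0.016 and Hsd3b7 -0.17. The sex comparison in LKO livers is another comparison, of other animals than the controls, and not a change of processing. In it Cyp27a1 was -0.090 and Nr0b2 0.29, and Cyp7a1 (0.97) missed the threshold.

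With livers left out in turn, log2 fold changes in males ran from -0.13 to 0.084 for Cyp27a1, -0.21 to 0.98 for Cyp7b1, -0.036 to 0.19 for Baat and -0.15 to 0.0016 for Slc27a5. In females they ran from -0.11 to 0.29 for Cyp8b1 and -0.21 to 0.11 for Nr0b2. Over both sexes they ran from -0.25 to 0.29 for Cyp7b1 and -0.11 to 0.26 for Hsd3b7, and between control sexes from -0.11 to 0.14 for Baat. The adjusted p over all settings was 0.211 to 0.602 for Cyp7a1 in males, 0.167 to 0.388 for its interaction, and 0.0522 to 0.241 for Cyp39a1 over both sexes. The precision of Hsd3b7 is limited by its 1 to 24 counts.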
